A study of Homo sapiens with 8 samples.

Results

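The genes described here are PLAU, PLAT, PLAUR and SERPINE2, which encode the plasminogen activators, the receptor of one of them and a serpin that inhibits both. They were taken by name from a list of 4, which was chosen with earlier results of these data known. All 4 were found among the 28278 named genes of the deposited tables. All 4 also passed the filter on low counts, which kept 15684 genes. The cells were SK-Hep1, a line from a human liver adenocarcinoma, as 1 sorafenib-sensitive and 1 sorafenib-resistant population; sorafenib is a multikinase inhibitor and a drug for liver cancer. The 8 poly(A) RNA-seq libraries form 4 groups of 2, which the labels call biological replicates of a single batch: sensitive cells with control siRNA (sensitive control), resistant cells with control siRNA (resistant control), resistant cells with an siRNA against COL6A3 (siCOL6A3), and resistant cells with that siRNA and recombinant endotrophin (siCOL6A3 + rhETP). Endotrophin is the C-terminal fragment released from the collagen VI chain that COL6A3 encodes. All cells were transfected with an siRNA and grew in medium with serum, the sensitive group received no COL6A3 siRNA, and no group received endotrophin without it. The sources used here give no dose or duration for endotrophin, nor how resistance arose, nor the sorafenib content of the medium at RNA collection. With 1 population of each kind, resistance and the population that carries it cannot be told apart. P-values set differences between group means against the spread between these libraries only, estimated with information shared across genes. In bulk RNA fewer cells of a type and less RNA per cell cannot be told apart.

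Plasminogen is a circulating zymogen that is cut to plasmin, a protease that dissolves fibrin and degrades matrix proteins. PLAU encodes urokinase (uPA), which acts largely at the cell surface when bound to its receptor uPAR, the glycolipid-anchored product of PLAUR. PLAT encodes tissue plasminogen activator (tPA), which endothelial cells secrete and which is most active on fibrin. SERPINE2 encodes protease nexin-1, a serpin that inhibits thrombin, urokinase, tissue plasminogen activator and plasmin by forming covalent complexes, which cells take up through endocytic receptors such as LRP1.

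The libraries held 30461668 to 44116043 counts and 15301 to 16594 detected genes, with scaling factors of 0.981 to 1.02. COL6A3 was lower in both siRNA groups than in resistant control, with 18.7 ± 1.39 CPM (counts scaled by library total; SD, n = 2) in sensitive control, 136 ± 0.853 in resistant control, 43.8 ± 1.61 with the siRNA and 68.6 ± 3.82 with siRNA and endotrophin. It was higher with endotrophin than with the siRNA alone (0.65, SE 0.11; edgeR adjusted p = 0.000739), so the comparison of these groups also differs in the level of the silenced gene, and the part of that level in the results was not tested. Of 15 endothelial markers, ENG (mean 23.5 FPKM) and TIE1 (1.24 FPKM) were at or above 1 FPKM and the defining genes PECAM1, CDH5 and KDR were below 0.1 FPKM. The summed level of the list was 30.3 to 32.5 FPKM in the control groups and 18.1 to 21.0 FPKM in the siRNA groups. Most of that sum was ENG, at 27.7 to 31.0 FPKM in the control groups and 16.9 to 18.4 FPKM in the siRNA groups, while TIE1 was at 0.294 to 2.47 and 0.587 to 1.79 FPKM. Of 15 hepatocyte markers 12, ALB among them, were below 0.1 FPKM. The others were CPS1, SERPINA1 and ASGR1 (mean 0.764 FPKM). The list summed to 6.51 and 5.26 FPKM in sensitive control, 7.39 and 9.399 in resistant control, 10.3 and 9.61 in siCOL6A3 and 11.5 and 11.7 in siCOL6A3 + rhETP. SERPINA1 was at 2.24 to 4.23 FPKM in the control groups and 5.11 to 6.97 FPKM in the siRNA groups, while CPS1 was at 2.08 to 4.26 and 3.62 to 4.49 FPKM. Of 11 leukocyte markers 9, PTPRC among them, were below 0.1 FPKM, while CD68 was at 53.2 to 66.3 FPKM. Fibroblast and stellate markers summed to 14.9 to 17.5 FPKM in the control groups and 40.1 to 42.2 FPKM in the siRNA groups, with DCN and DES below 0.1 FPKM. Most of that difference was COL1A1, at 1.73 to 5.26 FPKM in the control groups and 22.2 to 26.4 FPKM in the siRNA groups, while ACTA2 was at 7.85 to 12.8 and 12.01 to 14.8 FPKM. Of 9 epithelial markers, EPCAM and CDH1 were below 0.1 FPKM and 5 were at or above 1 FPKM. The summed level of that list, carried by KRT8 and KRT18, was 2106 and 2143 FPKM in sensitive control, 1688 and 1768 in resistant control, 1888 and 1998 in siCOL6A3 and 2582 and 2779 in siCOL6A3 + rhETP. KRT19 went from 151 and 142 FPKM in sensitive control to 1.46 and 0.775 in resistant control, and CLDN7 from 21.8 and 24.3 to 2.36 and 3.38, in the same comparison in which PLAT and SERPINE2 were lower. The part of these markers in the results below was not tested.

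The promoter windows below come from RefSeq (GRCh38.p14), run 5′ to 3′ on the strand of the gene from 250 bases before to 50 bases after an annotated start, and are shown because PLAU and SERPINE2 changed in several comparisons while PLAUR was called in none. RefSeq windows were used for 3 of the 4 genes, and where a gene had several, the one with most GENCODE release 29 basic transcripts starting within 50 bases was taken: chr10:73910882-73911181 on the plus strand for PLAU, with 2 of 2 transcripts, chr19:43670120-43670419 on the minus strand for PLAUR, with 2 of 4, and chr2:224031429-224031728 on the minus strand for SERPINE2, with 1 of 4. The last window is therefore an internal start of SERPINE2, and which start these cells used was not tested. Capitals mark matches on either strand to 4 motifs: TGANTCA, bound by AP-1, GGGCGG, bound by SP1, the CCAAT box and the TATA box in the form TATAAA.
PLAU: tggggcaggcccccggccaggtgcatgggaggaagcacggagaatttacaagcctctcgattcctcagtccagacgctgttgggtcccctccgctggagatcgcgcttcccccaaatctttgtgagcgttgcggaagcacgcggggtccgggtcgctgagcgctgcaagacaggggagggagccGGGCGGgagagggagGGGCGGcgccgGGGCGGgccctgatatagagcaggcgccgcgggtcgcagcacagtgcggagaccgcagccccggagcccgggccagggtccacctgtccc
PLAUR: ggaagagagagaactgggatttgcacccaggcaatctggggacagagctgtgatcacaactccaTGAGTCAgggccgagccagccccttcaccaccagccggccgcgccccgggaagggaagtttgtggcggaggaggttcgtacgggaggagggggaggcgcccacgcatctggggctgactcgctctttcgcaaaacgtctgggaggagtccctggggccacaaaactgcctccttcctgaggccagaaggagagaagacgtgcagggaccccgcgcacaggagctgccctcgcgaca
SERPINE2: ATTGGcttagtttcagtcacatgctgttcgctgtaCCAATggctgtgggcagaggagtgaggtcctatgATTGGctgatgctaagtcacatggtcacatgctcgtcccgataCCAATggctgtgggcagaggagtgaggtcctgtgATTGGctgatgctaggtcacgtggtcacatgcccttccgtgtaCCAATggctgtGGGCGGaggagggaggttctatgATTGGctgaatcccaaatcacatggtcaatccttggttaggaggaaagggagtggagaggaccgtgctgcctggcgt
The PLAUR window holds 1 match to the AP-1 motif, TGAGTCA, 186 bases before the start. That motif occurs in 7.71% of 35116 windows of this length. The PLAU window holds 3 matches to the SP1 motif, which occurs in 45.0% of windows, at 66, 51 and 40 bases before the start. The SERPINE2 window holds 7 matches to the CCAAT box, which occurs in 34.6% of windows, and 1 to the SP1 motif. CCAAT in the forward direction recurs there every 77 bases, at 215, 138 and 61 bases before the start, and the first and second 77-base units are identical at 89.6% of positions, and the second and the last at 58.4%. TATAAA, found in 11.5% of windows, is in none of the 3. The windows reach only 250 bases upstream, so the distal AP-1 and ETS enhancer for which the human PLAU gene is known lies outside them. PLAT, which was called in 4 of 6 comparisons, had no window among those used here. A link between these motifs and the calls was not tested.

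The plasminogen activator genes and their inhibitor separated the 4 groups in different ways. Resistant control cells had lower PLAT and much lower SERPINE2 mRNA than sensitive cells, and PLAU and PLAUR passed no test there. With the COL6A3 siRNA PLAU was lower and SERPINE2 higher than in the resistant control, and with endotrophin added PLAU and PLAT were higher and SERPINE2 lower than with the siRNA alone. A change was called where the Benjamini-Hochberg adjusted p over all 15684 genes, from the quasi-likelihood test of edgeR, was under 0.05. Levels are in FPKM (counts scaled by gene length and library total), which may be compared between genes, or in CPM; fold changes are log2 values from the counts with their SE.

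**Figure D1:**
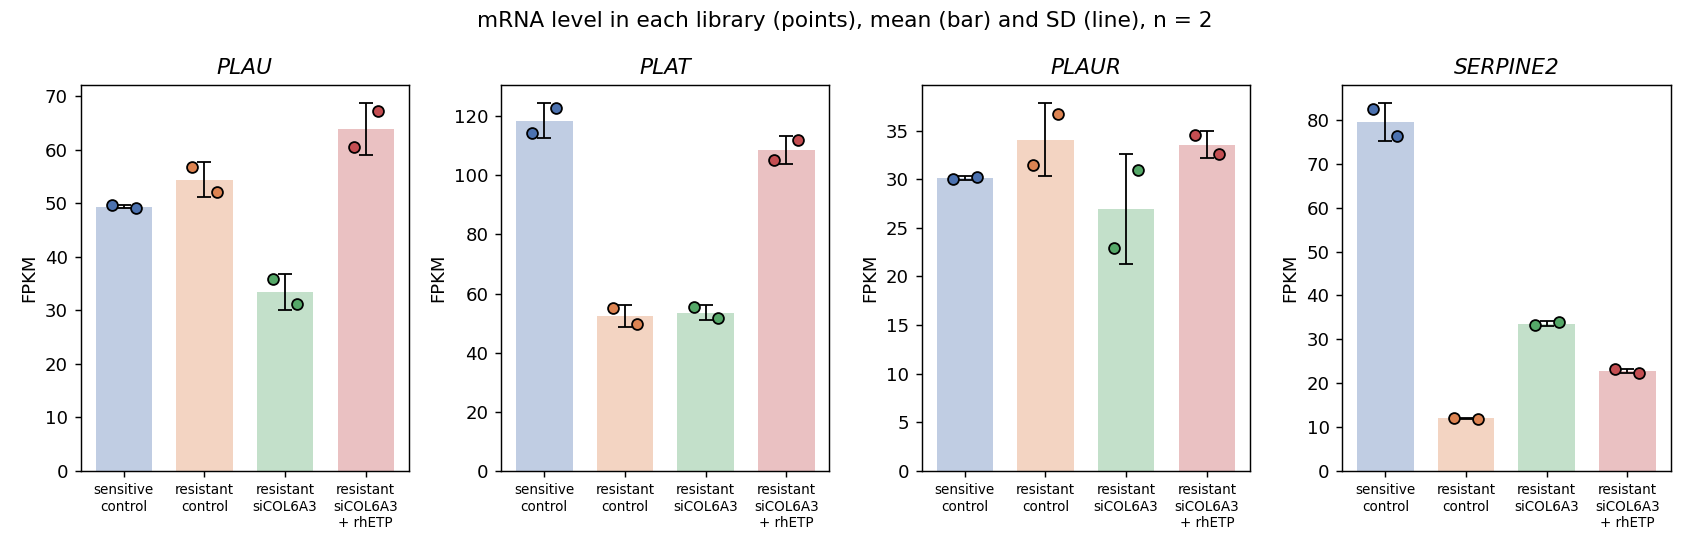
FPKM (y axis, linear, from 0) of PLAU, PLAT, PLAUR and SERPINE2 in the 4 groups (x axis); points are libraries, bars are means and lines are SD (n = 2). PLAT is high in sensitive control and siCOL6A3 + rhETP, PLAU is lowest with the siRNA alone, and SERPINE2 is at 4 separate levels.

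PLAT (gene identifier 5327, chromosome 8 from 42174718 to 42207565 in the RefSeq annotation of GRCh38), the tissue-type activator, had the highest level of the 4 genes in sensitive cells. Its FPKM was 114 and 123 in the sensitive control libraries, 54.9995 and 49.7 in the resistant control, 55.3 and 51.8 in siCOL6A3 and 105 and 112 in siCOL6A3 + rhETP. The 4 resistant libraries without endotrophin were thus all below the other 4, and the resistant control and siCOL6A3 groups overlapped. In the order of levels, sensitive control (118 ± 5.93 FPKM) and siCOL6A3 + rhETP (108 ± 4.77) were not called different (log2 fold change -0.14, SE 0.082, adjusted p = 0.23, edgeR), nor were siCOL6A3 (53.5 ± 2.46) and resistant control (52.4 ± 3.73; 0.017, SE 0.083, adjusted p = 0.927, edgeR; 95% interval -0.15 to 0.19). From sensitive to resistant control the log2 value of PLAT fell by 1.22 (SE 0.083; edgeR adjusted p = 3.84e-10), which is 2.32-fold. It rose with endotrophin over siRNA alone by 1.06 (SE 0.083; edgeR adjusted p = 2.85e-08), a 2.08-fold difference. By p-value PLAT stood 9 of 15684 genes in that comparison. Against the resistant control, siCOL6A3 + rhETP cells had 2.11-fold more PLAT mRNA (1.08, SE 0.083; edgeR adjusted p = 5.29e-09), and siCOL6A3 cells had 2.29-fold less than sensitive cells (edgeR adjusted p = 3.3e-10).

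PLAU (5328, chromosome 10 from 73908832 to 73917494), the urokinase gene, was lowest with the siRNA alone. Its FPKM was 49.6 and 49.2 in the sensitive control libraries, 56.7 and 52.1 in the resistant control, 35.8 and 31.1 in siCOL6A3 and 60.4 and 67.3 in siCOL6A3 + rhETP. No pair of groups overlapped, and both siCOL6A3 libraries were below the other 6. With the siRNA the log2 value of PLAU fell by 0.72 (SE 0.098; edgeR adjusted p = 1.3e-05), which is 1.64-fold. With endotrophin it rose by 0.97 over siRNA alone (SE 0.099; edgeR adjusted p = 1.25e-06), a 1.96-fold difference, and by p-value it stood 24 of 15684 genes. Its level with endotrophin was 0.26 above the resistant control (SE 0.097), which was not called (edgeR adjusted p = 0.0708), although DESeq2, halved counts and other filters on low counts gave adjusted p-values of 0.0364 to 0.0498. Resistant and sensitive control were not called different (0.10, SE 0.098, edgeR adjusted p = 0.542; 95% interval -0.10 to 0.30). Against sensitive control, siCOL6A3 cells had 1.53-fold less PLAU mRNA (edgeR adjusted p = 5.25e-05) and siCOL6A3 + rhETP cells 1.28-fold more (edgeR adjusted p = 0.00793, or 0.117 without siCOL6A3 + rhETP replicate 2).

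C10orf55 overlaps PLAU on the opposite strand (chromosome 10, 73909969 to 73922777), and the sources used here do not say if counting used strand. It held 12 to 67 counts a library, or 0.271% to 2.24% of the PLAU count, with the largest shares in the siCOL6A3 libraries.

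PLAUR (5329, chromosome 19 from 43646095 to 43670169), the receptor gene, was the gene of the 4 with no call. Its FPKM was 29.98 and 30.2 in the sensitive control libraries, 31.4 and 36.7 in the resistant control, 22.9 and 30.9 in siCOL6A3 and 34.5 and 32.6 in siCOL6A3 + rhETP. The siCOL6A3 libraries differed 1.36-fold from each other in CPM, the largest replicate ratio of any of the 4 genes in any group, and 1 of them lay close to the sensitive control. PLAUR passed the test in 0 of 6 comparisons with edgeR, and in 0 of 6 with DESeq2. It was under an unadjusted p of 0.05 in 2 of them, with the siRNA (log2 fold change -0.35, SE 0.13, edgeR adjusted p = 0.0648) and with endotrophin over siRNA alone (0.36, SE 0.13, edgeR adjusted p = 0.119). Leaving out siCOL6A3 replicate 2 gave -0.57 (adjusted p = 0.00634) and 0.58 (adjusted p = 0.0148), and leaving out replicate 1 left -0.14 and 0.15. The siRNA difference was also called without resistant control replicate 1 (-0.46, adjusted p = 0.0413), without either sensitive control library (adjusted p = 0.0314 and 0.0348) and with no filter on low counts (adjusted p = 0.0495). Its difference between resistant and sensitive control was 0.14 (95% interval -0.14 to 0.42).

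SERPINE2 (5270, chromosome 2 from 223975045 to 224039286), the gene of protease nexin-1, changed in all 6 comparisons. Its FPKM was 82.6 and 76.4 in the sensitive control libraries, 12.1 and 11.8 in the resistant control, 33.2 and 34.0 in siCOL6A3 and 23.2 and 22.4 in siCOL6A3 + rhETP. The groups stood apart in the order sensitive control, siCOL6A3, siCOL6A3 + rhETP and resistant control, and every neighbouring pair in that order differed in the test. Resistant control cells had 6.85-fold less than sensitive cells (log2 fold change -2.78, SE 0.10; edgeR adjusted p = 1.5e-14), which stood 4 of 15684 genes by p-value. With the siRNA it rose by 1.48 (SE 0.099; edgeR adjusted p = 9.65e-10), or 2.79-fold, and stood 12 of 15684. Endotrophin added to the siRNA was followed by a level lower by 1.43-fold (-0.52, SE 0.095; edgeR adjusted p = 0.0012), still 1.94-fold above the resistant control (edgeR adjusted p = 2.91e-07). SERPINE2 stayed below sensitive control by 2.45-fold with the siRNA and by 3.52-fold with siRNA and endotrophin.

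**Figure D2:**
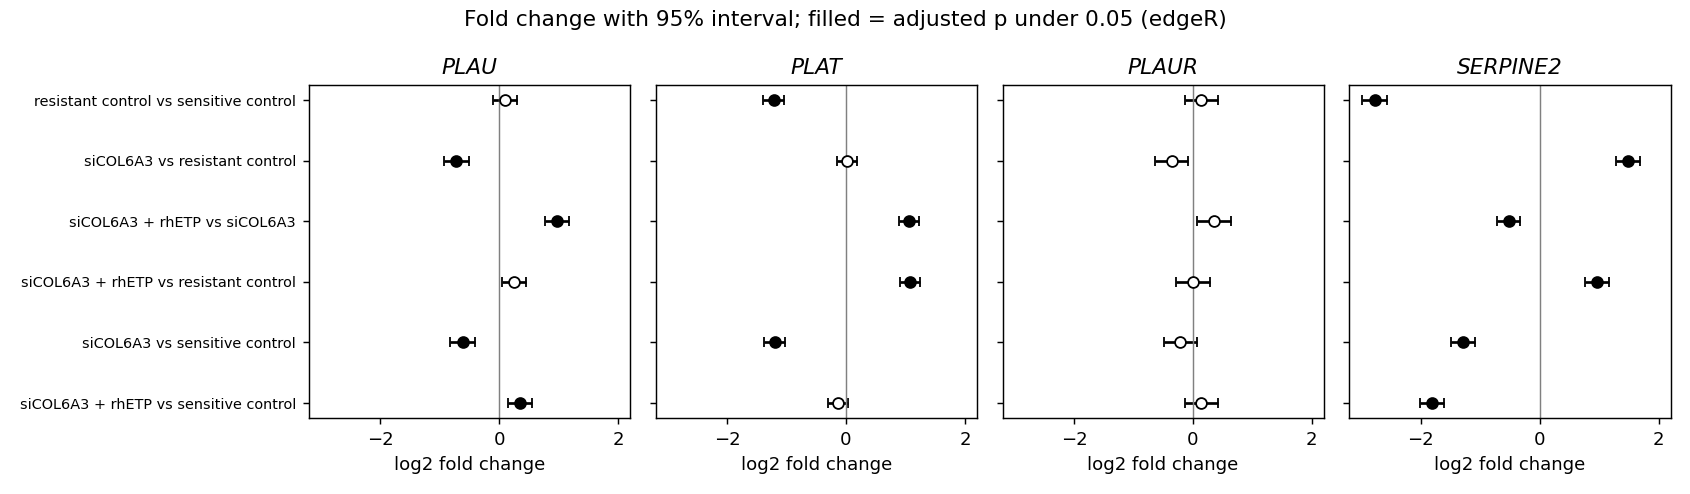
Log2 fold change (x axis, first group over second) of each gene in the 6 comparisons (y axis), with 95% intervals from the edgeR fit; filled points passed an adjusted p of 0.05. SERPINE2 is filled in all 6 comparisons and PLAUR in none.

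Counted over the 4 genes, 0 rose and 2 fell in resistant against sensitive control, where 15.8% of all genes tested were called, 6.52% higher and 9.3% lower. With the siRNA against resistant control 1 rose and 1 fell, while 22.3% of all genes were called, 11.4% higher and 10.9% lower. With endotrophin over siRNA alone 2 rose and 1 fell, while 7.77% of all genes were called, 4.41% higher and 3.36% lower. In siRNA and endotrophin against resistant control 2 rose and 0 fell, while 19% of all genes were called, 10.1% higher and 8.93% lower. Against sensitive control, 0 rose and 3 fell with the siRNA, while 27.6% of all genes were called, 13.1% higher and 14.5% lower. Against the same control, 1 rose and 1 fell with siRNA and endotrophin, while 26.8% of all genes were called, 13% higher and 13.8% lower. The 2 groups did not overlap for 4 of the 4 genes in resistant against sensitive control (53% of all genes), in endotrophin over siRNA alone (52%), and against sensitive control with the siRNA (62.4%) and with siRNA and endotrophin (61.7%). They did not overlap for 3 of the 4 with the siRNA against resistant control (58.3% of all genes) and with siRNA and endotrophin against it (57.3%). These comparisons share groups, so their counts are not independent of each other. Because the 4 genes were chosen with earlier results of these data known, their counts and their ranks by p-value are a description. They are no test of the set against all genes.

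The ratio of activator to SERPINE2 mRNA separated the groups into a low and a high pair. The summed FPKM of PLAU and PLAT over that of SERPINE2 was 1.98 and 2.25 in the sensitive control libraries, 9.27 and 8.65 in the resistant control, 2.74 and 2.44 in siCOL6A3 and 7.15 and 8.01 in siCOL6A3 + rhETP. Sensitive control and siCOL6A3 thus lay low, and the other groups lay high, with no overlap between low and high. The low ratios had different makeup: the summed activators were at 168 ± 5.64 FPKM in sensitive control and 86.9 ± 5.79 with the siRNA. The sum was 107 ± 6.96 in resistant control and 172 ± 9.59 with siRNA and endotrophin. PLAT exceeded PLAU 2.40 ± 0.134-fold in sensitive control, 1.61 ± 0.0861-fold with the siRNA and 1.70 ± 0.0540-fold with siRNA and endotrophin, while in resistant control PLAT was at 0.962 ± 0.0113 of the PLAU level. PLAU stood at 1.64 ± 0.0193 times PLAUR in sensitive control, 1.61 ± 0.272 in resistant control, 1.28 ± 0.392 with the siRNA and 1.91 ± 0.222 with siRNA and endotrophin. The ratios are a description and were not tested, and mRNA ratios are not ratios of active protein.

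**Figure D3:**
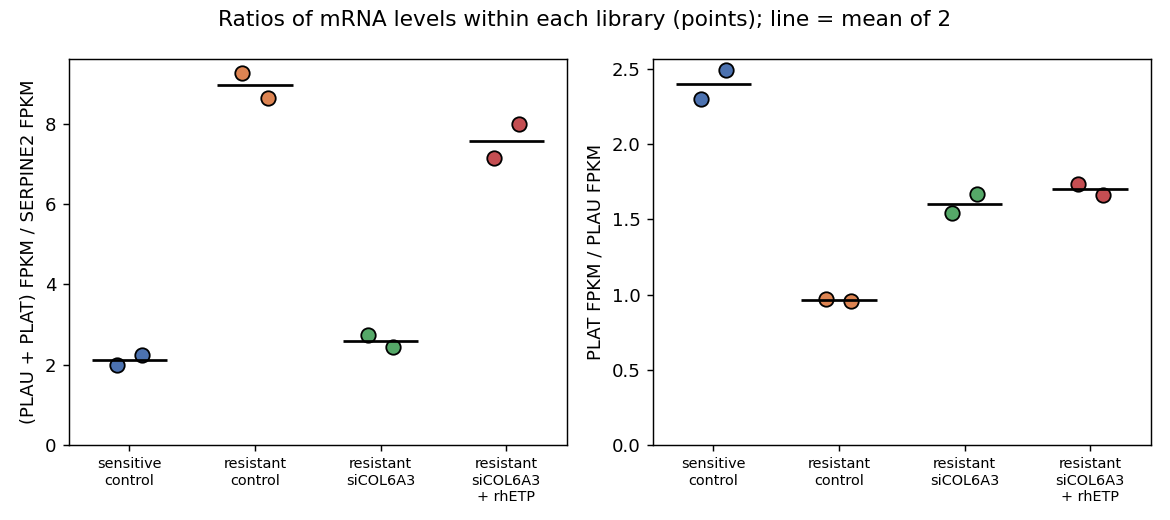
Ratio of summed PLAU and PLAT FPKM to SERPINE2 FPKM (left) and of PLAT to PLAU FPKM (right) in each library, by group (x axis); points are libraries and lines are means. Left, resistant control and siCOL6A3 + rhETP libraries lie between 7.15 and 9.27 and the other 4 between 1.98 and 2.74; right, resistant control libraries alone lie below 1.

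The genes whose pattern over the 8 libraries came closest to each of the 4 were found by the root-mean-square difference of log2(CPM + 0.5), each centred on its own mean. For PLAT the nearest was SERPINB2, which encodes another inhibitor of plasminogen activators, at 0.14 log2 units, against a median of 0.65 over all genes tested. SERPINB2 was at 70.5 ± 0.298 CPM in sensitive control, 33.3 ± 1.02 in resistant control, 37.9 ± 0.937 with the siRNA and 80.0 ± 5.75 with siRNA and endotrophin. The next were FOXC2, a forkhead factor, at 0.18, and the scarce LINC02204, at no more than 0.712 CPM in any library, at 0.19. For PLAU they were FSTL1, a secreted glycoprotein, at 0.12, the replication factor gene GINS4 at 0.14 and the centromere chaperone gene HJURP at 0.14, against a median of 0.48. FSTL1 went from 871 ± 9.39 CPM in resistant control to 591 ± 21.3 with the siRNA and 1048 ± 22.6 with siRNA and endotrophin. For SERPINE2 they were DDX58, which encodes the RNA sensor RIG-I, at 0.19, the growth factor gene BMP4 at 0.20 and the lysyl oxidase gene LOX at 0.21, against a median of 1.04. DDX58 was at 67.7 ± 7.72 CPM in sensitive control, 9.62 ± 0.463 in resistant control, 22.5 ± 0.246 with the siRNA and 16.2 ± 3.12 with siRNA and endotrophin. For PLAUR they were TRIM28 at 0.074, PRCC at 0.075 and RPUSD1 at 0.076, against a median of 0.36, and all 3 had, like PLAUR, their lowest value in siCOL6A3 replicate 1. Among the 4 genes themselves the closest pair was PLAU and PLAUR at 0.29 and the farthest PLAU and SERPINE2 at 1.14. The 0.29 stands against medians over all genes tested of 0.48 from PLAU and 0.36 from PLAUR, whose nearest genes lay at 0.12 and 0.074.

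**Figure D4:**
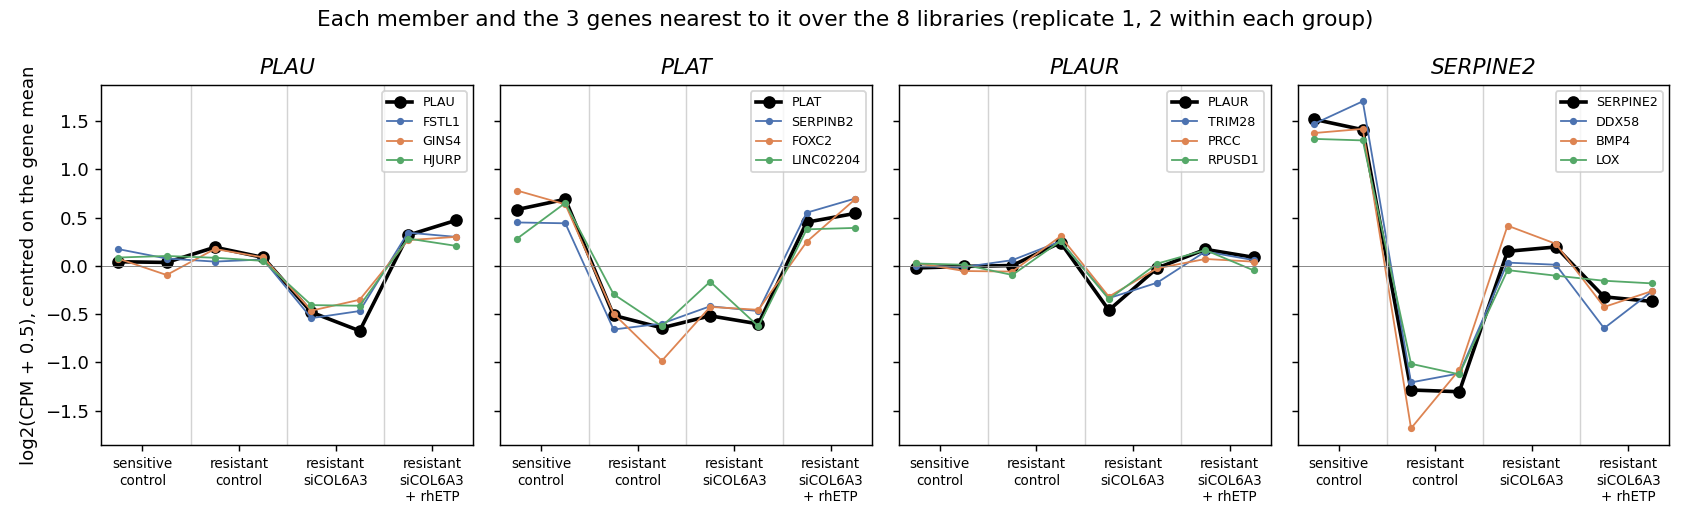
Log2(CPM + 0.5) centred on the mean of each gene (y axis) in the 8 libraries, grouped in pairs along the x axis, for each of the 4 genes (black) and the 3 nearest genes (colours). SERPINB2 follows PLAT within 0.14 log2 units on average, and the SERPINE2 panel spans the widest range.

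The substrate itself was not transcribed at a detectable level: PLG, the plasminogen gene, had 0 counts in all 8 libraries, which allows up to 0.0680 to 0.0985 CPM a library for a floor of 3 counts. Serum, in which these cells grew, is a source of plasminogen. Among genes tested whose products can bind plasminogen at the surface, mean levels ran from 13.1 FPKM for PLGRKT to 1203 FPKM for ANXA2. How much of each product, such as those of ENO1, KRT8 and KRT18, lay at the surface was not measured. Of 6 tested, 0 rose, 4 fell and 2 were not called in resistant against sensitive control (median log2 fold change -0.27, all genes 0.012 with 15.8% called). The median and the share called over all genes tested stand in the same way beside each count of a list. ANXA2, whose product annexin A2 holds plasminogen and tissue plasminogen activator at the endothelial surface, went from 3219 ± 53.9 to 1768 ± 23.0 CPM (-0.86, SE 0.047; edgeR adjusted p = 5.68e-12), and its partner S100A10 from 396 ± 2.49 to 252 ± 12.5 CPM (-0.65, SE 0.080). ENO1 (-0.24) and KRT18 (-0.30) fell as well. With the siRNA only KRT8 rose (0.35, SE 0.051), and the median was -0.039 (all genes 0.0042 with 22.3% called). Endotrophin over siRNA alone gave 3 rises and 0 falls, namely ANXA2 (0.24, SE 0.046), KRT8 (0.50) and KRT18 (0.51), and the median was 0.21 (all genes 0.00097 with 7.77% called). LPA had 0 counts in all libraries, and the receptor gene PLGRKT was not called in these 3 comparisons (edgeR adjusted p = 0.226 to 0.902).

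Inhibitors of plasminogen activators and plasmin, SERPINE2 included, numbered 10 tested of 13 listed. In resistant against sensitive control 0 rose, 3 fell and 7 were not called (median -0.041, all genes 0.012 with 15.8% called). Beside SERPINE2, SERPINB2 fell by 1.08 in log2 (SE 0.12; edgeR adjusted p = 7.06e-07). With the siRNA 2 rose and 2 fell (median 0.087, all genes 0.0042 with 22.3% called). SERPINA1, the antitrypsin gene, which is also in the list of hepatocyte markers, rose together with SERPINE2 (0.58, SE 0.19). SERPINB6, an intracellular serpin, fell from 135 ± 9.45 to 77.8 ± 3.26 CPM (-0.80, SE 0.10; edgeR adjusted p = 5.59e-06). Under endotrophin over siRNA alone 2 rose and 1 fell (median 0.17, all genes 0.00097 with 7.77% called). SERPINB2 rose by 1.08 (SE 0.12; edgeR adjusted p = 3.67e-06), the opposite direction to SERPINE2, and SERPINB6 stayed at -0.016 (SE 0.10). A2M, the gene of the plasma inhibitor alpha-2-macroglobulin, had 0 counts in all libraries.

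Receptors that clear complexes of activator and inhibitor, with genes listed beside them such as LRPAP1 and MRC2, numbered 10 tested of 12 listed. In resistant against sensitive control 2 rose and 1 fell (median -0.020, all genes 0.012 with 15.8% called). LRP1, the main endocytic receptor for such complexes, went from 207 ± 30.8 to 324 ± 28.5 CPM (0.65, SE 0.10), and MRC2, which encodes the uPAR-associated collagen receptor, rose by 0.53 (SE 0.16), while the sorting receptor SORT1 fell by 0.63. With the siRNA 4 rose and 2 fell (median 0.090, all genes 0.0042 with 22.3% called). LRP1 rose further to 490 ± 52.4 CPM (0.59, SE 0.10; edgeR adjusted p = 0.000185), MRC2 rose by 1.01 (SE 0.16) and IGF2R, which binds uPAR and plasminogen, by 0.51 (SE 0.093). The fourth was LRP1B, with 0 counts in both resistant control libraries and 36 and 30 with the siRNA. SORT1 fell by 0.63 again. With endotrophin over siRNA alone 2 rose and 2 fell (median -0.091, all genes 0.00097 with 7.77% called), of which IGF2R fell by 0.65 (SE 0.093) and LRP8 by 0.70, MRC2 rose by 0.52 (SE 0.15) and LRPAP1, the chaperone of these receptors, rose by 0.41. LRP1 stayed at 0.045 (SE 0.10). LRP2 had 0 counts in all libraries.

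Partners of the urokinase receptor at the cell surface numbered 14 tested of 18 listed. CAV1, the caveolin gene, went from 1480 ± 14.4 CPM in sensitive control to 527 ± 26.5 in resistant control, 446 ± 18.5 with the siRNA and 642 ± 10.6 with siRNA and endotrophin, and each step was called. In resistant against sensitive control 3 rose and 2 fell (median 0.0074, all genes 0.012 with 15.8% called), the integrin genes ITGAV (0.41), ITGA5 (0.39) and ITGA3 (0.20) upward, and CAV1 (-1.49) and the adhesion kinase gene PTK2 (-0.30) downward. With the siRNA 2 rose and 3 fell (median 0.040, all genes 0.0042 with 22.3% called): ITGAV (0.70) and ITGB1 (0.21) rose, and CAV1 (-0.24), ITGA5 (-0.38) and ITGA3 (-0.21) fell. On addition of endotrophin 1 rose, CAV1 (0.52, SE 0.063), and 0 fell (median 0.023, all genes 0.00097 with 7.77% called). EGFR was not called in these 3 comparisons (edgeR adjusted p = 0.534 to 0.933), and FPR1, FPR2 and FPR3, the formyl-peptide receptors that bind cleaved uPAR, had 0 counts in all libraries.

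The family that shares the three-finger domain of uPAR had 11 genes tested of 24 listed, PLAUR among them. In resistant against sensitive control 0 rose and 4 fell (median 0.14, all genes 0.012 with 15.8% called). LY6E went from 98.0 ± 9.23 to 45.0 ± 5.01 CPM (-1.12, SE 0.12) and LY6K fell by 0.49, while LYNX1 had 72 and 58 counts in sensitive control and 0 and 0 in resistant control, and LYPD6B 22 and 84 against 0 and 0. With the siRNA 3 rose and 0 fell (median 0.27, all genes 0.0042 with 22.3% called), namely CD59, a complement inhibitor, from 451 ± 0.0314 to 633 ± 5.46 CPM, LY6E (0.46) and LYNX1, at 25 and 55 counts. Between endotrophin and siRNA alone 0 rose and 0 fell by edgeR (median -0.043, all genes 0.00097 with 7.77% called). The smallest adjusted p was 0.077, of LY6E. An unadjusted p under 0.05 was found for 5. The share of all genes at that unadjusted level is not given here, so this count has no background.

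Other serpins numbered 9 tested of 24 listed. SERPINB7 rose from 69.4 ± 1.46 to 156 ± 8.23 CPM in resistant against sensitive control (1.17, SE 0.097; edgeR adjusted p = 9.24e-09), against the direction of SERPINE2, and SERPINB1, an inhibitor of neutrophil proteases, fell by 0.79 (SE 0.14). SERPINA12 rose by 2.47 (SE 0.84), with only 3 and 13 counts in sensitive control and 67 and 19 in resistant control. SERPINB9 fell by 1.64 (SE 0.37), so that 2 rose and 2 fell (median 0.10, all genes 0.012 with 15.8% called). With the siRNA 2 rose and 1 fell (median 0.41, all genes 0.0042 with 22.3% called): SERPINH1, the collagen chaperone gene, at 0.41 and SERPINB1 at 0.68 rose and SERPINB7 fell by 0.30. Adding endotrophin gave 0 rises and 2 falls, SERPINB1 by 0.48 and SERPINH1 by 0.31 (median 0.17, all genes 0.00097 with 7.77% called).

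Coagulation genes were listed because thrombin is a target of protease nexin-1. F2, the thrombin gene, did not pass the filter on low counts. Of 13 tested, 2 rose and 4 fell in resistant against sensitive control (median -0.12, all genes 0.012 with 15.8% called). TFPI, the inhibitor of the tissue factor pathway, fell from 175 ± 2.93 to 68.2 ± 3.77 CPM (-1.36, SE 0.098), PROCR, the endothelial protein C receptor gene, from 121 ± 9.45 to 60.1 ± 7.48 CPM, and F3, which encodes tissue factor, from 228 ± 19.4 to 147 ± 0.305 CPM. TFPI2 fell by 3.17 (SE 0.60). The receptor genes F2R, for thrombin (0.44, SE 0.11), and F2RL2 (2.56, SE 0.39) rose. With the siRNA 5 rose and 2 fell (median 0.21, all genes 0.0042 with 22.3% called). TFPI (0.75), TFPI2 (2.99), PROCR (0.39), F2R (0.82, SE 0.11) and PROS1 (0.75) rose, while F3 fell by 1.00 (SE 0.096; edgeR adjusted p = 1.3e-07) and THBD by 0.65. Adding endotrophin gave 0 rises and 1 fall, PROS1 by 0.48 (median 0.069, all genes 0.00097 with 7.77% called).

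Of 9 genes tested among those of HGF activation and membrane serine proteases, 1 rose and 2 fell in resistant against sensitive control (median -0.41, all genes 0.012 with 15.8% called): the protease gene PRSS23 rose (0.49), the HGF receptor gene MET fell (-0.90, SE 0.085) and DPP4 had 36 and 14 counts against 0 and 0. With the siRNA 1 rose, DPP4 with 48 and 40 counts, and FURIN, a processing protease gene, fell by 0.67 (median -0.035, all genes 0.0042 with 22.3% called). With endotrophin over siRNA alone 0 rose and 0 fell by edgeR (median 0.017, all genes 0.00097 with 7.77% called). The smallest adjusted p was that of HTRA1, at 0.217. An unadjusted p under 0.05 was found for 1, again without a share of all genes at that level. HGF and HPN, the gene of the protease hepsin, had 0 counts in all libraries.

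AP-1 and ETS factors are known to bind the human PLAU enhancer, and AP-1 the PLAUR promoter. The list of these factors also held SP1, SP3 and RELA, which belong to neither family, and its counts and medians include them. Of 19 tested, 2 rose and 3 fell in resistant against sensitive control (median 0.075, all genes 0.012 with 15.8% called), ETV4 (0.70) and ETV5 (0.52) upward and FLI1 (-1.49, SE 0.20), ATF3 (-1.42) and ELF3 (-4.13) downward. With the siRNA 6 rose and 3 fell (median 0.052, all genes 0.0042 with 22.3% called). FOSL1, the AP-1 subunit with the highest level at a mean of 243 FPKM, fell from 571 ± 62.8 to 307 ± 31.5 CPM (-0.90, SE 0.087; edgeR adjusted p = 1.37e-07), and FOSL2 (-0.37) and JUN (-0.43) fell with it; FLI1 (1.09), ETS2 (0.75), ETV1 (0.71), ATF2 (0.46), SP3 (0.41) and ETV5 (0.38) rose. With endotrophin over siRNA alone 4 rose and 2 fell (median 0.19, all genes 0.00097 with 7.77% called). FOSL1 rose to 397 ± 34.7 CPM (0.37, SE 0.086), FOSB rose by 2.43 (SE 0.52), RELA by 0.42 and ETS1 by 0.27. JUNB (-0.77) and ETV1 (-0.53) fell. JUN (-0.032, edgeR adjusted p = 0.894) and FOSL2 (-0.022, edgeR adjusted p = 0.934) were not called there. FOSL1 with siRNA and endotrophin was still lower than in resistant control (-0.53, SE 0.086, edgeR adjusted p = 0.000121). The part of these factors in the level of PLAU was not tested.

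**Figure D5:**
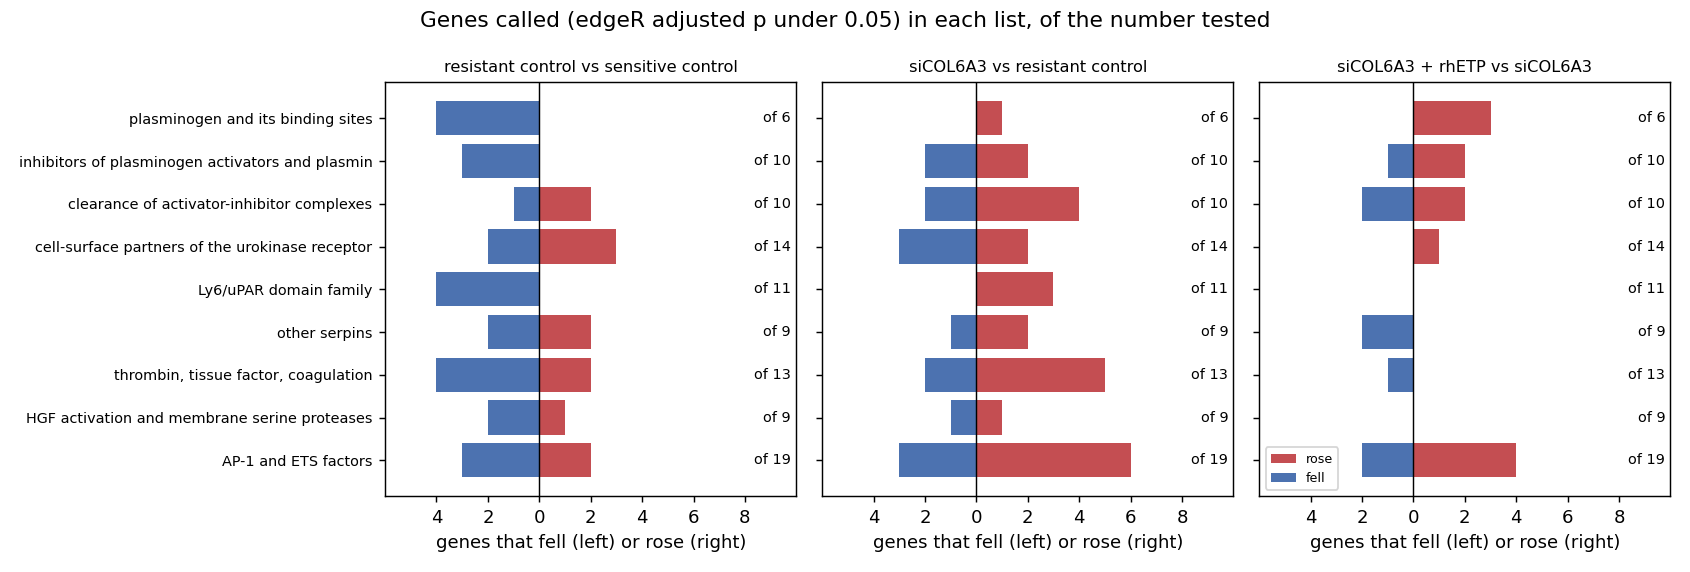
Number of genes that fell (left of 0) or rose (right of 0) on the x axis in each of 9 gene lists (y axis), for 3 comparisons, with the number tested at the right. With the siRNA the AP-1 and ETS list holds 6 rises of 19 tested and the coagulation list 5 of 13, where 11.4% of all genes tested were higher. With endotrophin over siRNA alone the AP-1 and ETS list holds 4 rises of 19 and the binding-site list 3 of 6, where 4.41% of all genes were higher.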

How the data were processed

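Poly(A) RNA-seq of 8 SK-Hep1 libraries was analysed from deposited tables. The authors deposited raw counts per gene and, separately, FPKM values; per the submitters' processing notes the genome build was GRCh38; the sources used here name no aligner, counter, annotation or strand setting. For 12638 genes, counts, FPKM and library totals implied the same gene length in every library (largest relative spread 5e-16). An entry without a single gene name held 0 counts and was left out. Counts were fitted in R 4.3.3 with edgeR 4.0.16 (filterByExpr, TMM, quasi-likelihood, 1 coefficient per group, all 8 libraries, 4 residual degrees of freedom); CPM used TMM-scaled totals. The 6 comparisons between groups were tested, 2-sided. The common coefficient of variation was 0.220. The spread of each gene was drawn towards that of other genes, with a median of 17.4 prior degrees of freedom. DESeq2 1.42.0 and limma 3.58.1 (on log2(FPKM + 1) and log2(FPKM + 0.1)) were alternatives, with other filters, scaling, pairing, halved counts and left-out libraries. The fit was also run on counts simulated from its own estimate of the spread, which cannot show how well that estimate describes the real counts. Intervals are at 95%; floors of 3 counts cover counting error only.

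The 4 genes and all lists were chosen with earlier results of these data known. Named list genes were, per list, up to 6 with the smallest adjusted p among those called, up to 3 with the highest mean FPKM, and genes at 0; others called in a count of 5 or fewer were named after their values were seen. Some genes counted in these lists are not reported here. Among counts of 1 to 20, 72.8% to 77.6% were even, against 49.6% to 50.9% at 500 or more; the cause was not tested, and halved counts were one of the alternatives. Replicates differed beyond counting noise (chi-square per degree of freedom 15.0 to 18.5 within groups), so none was counted as a duplicate. RefSeq positions matched 26998 of 28278 symbols.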

Additional observations from a re-analysis of the deposited data

How the results depend on the processing

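The calls of PLAT and SERPINE2 kept their direction and side of the threshold under all 17 alternatives in every comparison where they were called, and so did those of PLAU with the siRNA, with endotrophin over siRNA alone and with the siRNA against sensitive control. PLAU with siRNA and endotrophin against sensitive control was 0.28 to 0.44 when 1 library was left out; its call was lost without siCOL6A3 + rhETP replicate 2, where 1 of the 4 genes and not 2 was called. Values near 0 that were not called changed sign: PLAT with the siRNA against resistant control was -0.028 and -0.012 without resistant control replicate 2 and siCOL6A3 replicate 1 (range 0.097 to -0.028 when 1 library was left out), and PLAUR with siRNA and endotrophin against resistant control was -0.018 by limma with either pseudocount, -0.00027 with upper-quartile scaling, and -0.11 to 0.14 when 1 library was left out. PLAUR with the siRNA against sensitive control, -0.21 with all libraries, was -0.42 to 0.016 in such fits, and was called without siCOL6A3 replicate 2 (adjusted p = 0.0491), where 4 of the 4 genes and not 3 were called. Over all genes, endotrophin over siRNA alone gave 494 calls on log2(FPKM + 1) and 490 on log2(FPKM + 0.1) against 1218 (48.6% and 49.2% of them higher, against 691 of 1218), and 651 to 1637 when 1 library was left out; siRNA and endotrophin against resistant control gave 1972 to 3513 against 2981. The cause of these differences was not tested. Replicate numbers did not pair the libraries: differences between replicates 1 and 2 correlated across genes by -0.014 to 0.047 between groups, and with the replicate block PLAUR with the siRNA was -0.36, which gave 3 of the 4 genes called in that comparison and not 2. Precision rests on 2 libraries a group: counting error of the 4 genes was 0.839% to 2.99% of a count. These errors and the floors of 3 counts take counts as independent, and are too small if each read pair gave 2 counts, which the excess of even low counts leaves possible and which was not tested.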
